A study of Sus scrofa with 6 samples.

Results

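The genes described here encode the proteins of the mitochondrial ribosome, called mitoribosomal genes below. They were chosen by symbol: every gene of the platform annotation whose symbol starts with MRPL (large subunit) or MRPS (small subunit) followed by a digit, taken from probe sets with exactly 1 symbol. Of 6765 genes tested, 58 matched, 36 of the large and 22 of the small subunit. They were read by 77 probe sets, and 14 genes had more than 1. A RefSeq gene table (assembly Sscrofa11.1) held 57 of the 58 by Entrez number, each under the same symbol.

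The study set OBGF400, a pig olfactory bulb line that the labels call neuroblasts, against PK15, a non-neuronal line of epithelial origin, in order to find what the neuroblast line expresses preferentially. Both lines were untreated and grown with 10% bovine calf serum, OBGF400 in a DMEM/F12/HAM medium and PK15 in minimum essential medium with an added antifungal agent, amphotericin B. RNA of 9 cultures of each line was pooled into 3 samples, and each array is 1 pool. Each line stands for 1 cell line only, line and medium cannot be told apart, and the p-values measure the spread between pools.

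Mitochondria keep a ribosome of their own in the matrix, where it makes the few proteins that mitochondrial DNA encodes, all of them subunits of the respiratory chain and ATP synthase. Its RNAs are mitochondrial, but all its proteins are encoded in the nucleus, made in the cytosol and imported. The small subunit reads the mRNA and the large subunit joins the amino acids and passes the chain out at the inner membrane. Part of its proteins have bacterial counterparts and part are found only in mitochondria. 

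Mitoribosomal genes were lower in OBGF400 than in PK15 in both subunits. Of 58 genes, 48 were lower in OBGF400, 3 were higher and 7 had no call. A gene is called where its adjusted p in limma is under 0.05. Over all genes tested, 36.8% were called lower and 23.9% higher. All 3 OBGF400 arrays lay below all 3 PK15 arrays for 51 mitoribosomal genes and above them for 3, against 40.1% and 26.8% of all genes. The fall was at least 2-fold for 27 called genes, against 22.0% of all genes. The median difference, OBGF400 minus PK15 on the log2 scale as are all differences here, was -0.96, and the median over all genes was -0.0018. All genes include many at the lower limit of the table. Among genes with a mean signal above the median of all genes, 49 of 55 mitoribosomal genes were lower and 3 higher, where 51.6% of these brighter genes were lower and 32.4% higher. The median difference was -0.97 for the 55 and -0.27 for all brighter genes. Among genes above the 25th percentile, which kept all 58, 49 were lower against 48.8% of genes.

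The per-array medians of the 58 genes were 9.26, 9.31 and 9.28 on the log2 scale in OBGF400 and 10.23, 10.49 and 10.21 in PK15. The medians of the lines did not overlap, and PK15 replicate 2 stood above the other PK15 arrays. Among the PK15 arrays, replicate 2 gave the highest value for 46 of the 58 genes and replicate 3 the lowest for 36. Over all genes the PK15 medians were 7.85, 7.96 and 7.90. Without PK15 replicate 2, 48 mitoribosomal genes were called lower, against 35.5% of all genes. Without OBGF400 replicate 1, 2 or 3, the share of all genes called lower was 34.2%, 34.0% and 33.5%, and 46, 46 and 45 mitoribosomal genes were called lower. The spread between arrays of a line was small, with a median SD of 0.07 in OBGF400 and 0.14 in PK15. It was largest for MRPS28 in OBGF400 (SD 0.61) and MRPS36 in PK15 (SD 0.55).

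**Figure D1:**
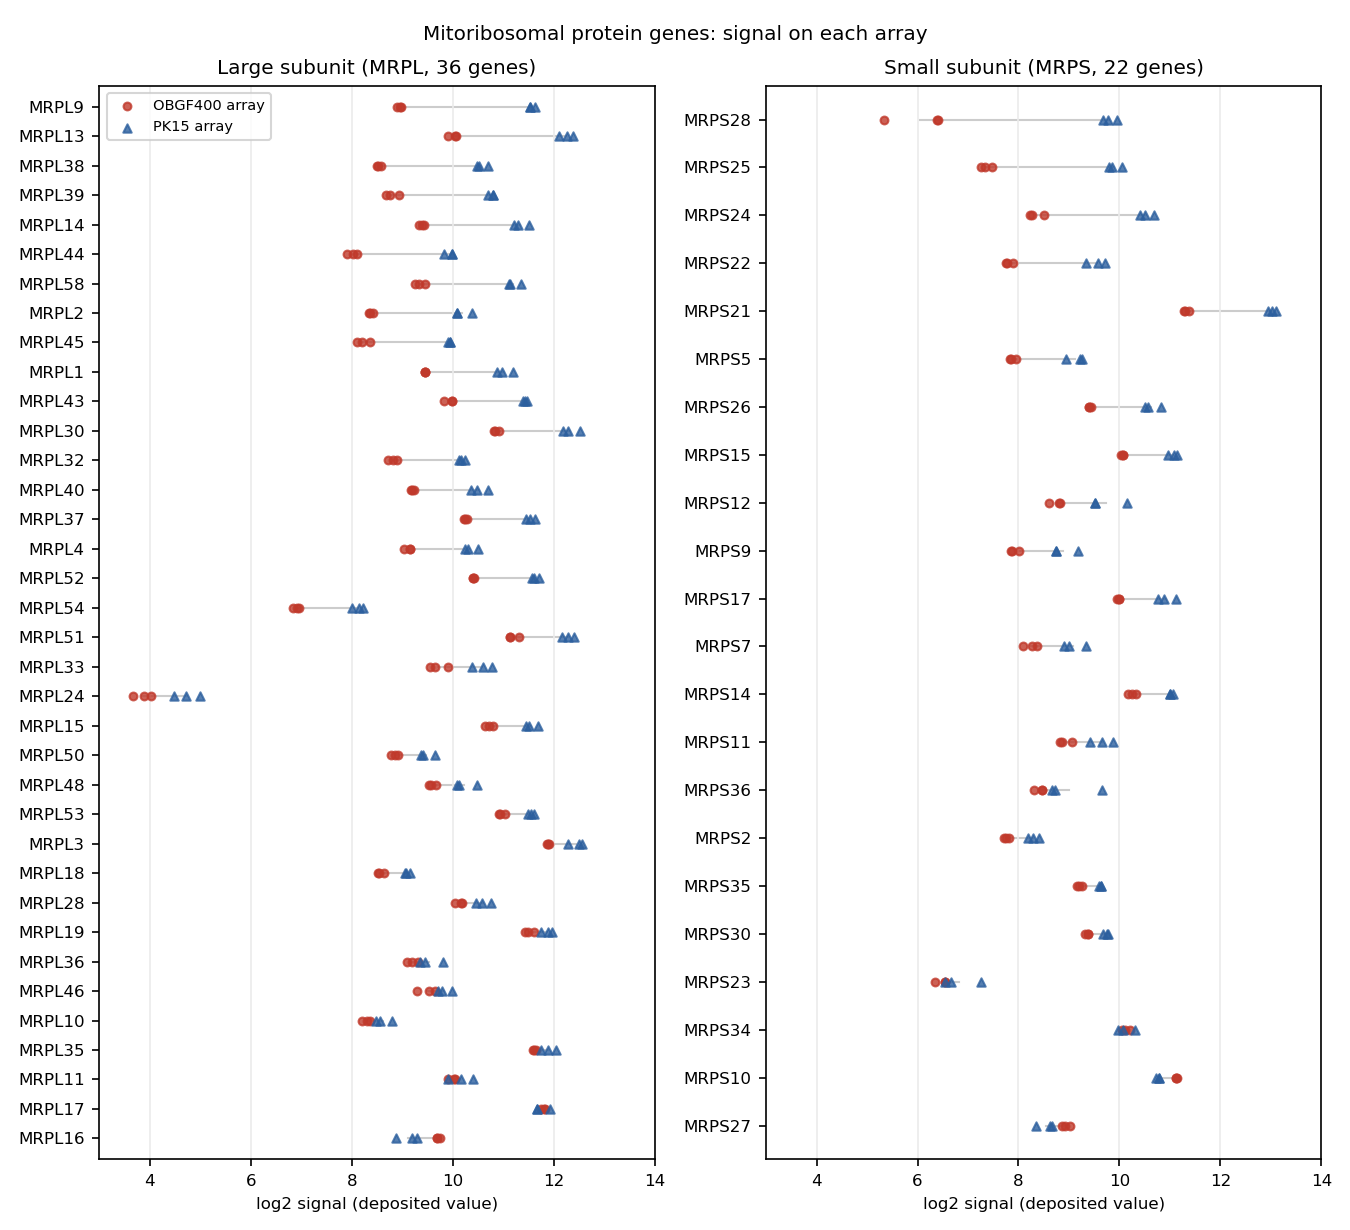
Deposited log2 signal (x axis) of the 36 MRPL and 22 MRPS genes on each of the 3 OBGF400 arrays (circles) and 3 PK15 arrays (triangles), sorted by the difference between the lines; grey bars join the line means. For 51 genes all circles lie to the left of all triangles, and for MRPL16, MRPS10 and MRPS27 all lie to the right.

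The size of the difference, and the sign of single genes, rest on how the arrays are put on one scale, while the median lay below 0 under each of the 6 scalings run. Quantile normalization or median centring also gave 48 lower and 3 higher, against 37.3% and 38.0% of all genes lower. Scaling on the hybridization controls, bacterial and phage transcripts added before hybridization, moved the median of all genes to 0.82 and left 25 mitoribosomal genes lower and 14 higher, with a median of -0.13. Under that scaling 18.6% of all genes were lower and 66.3% higher. With 2 of the poly-A controls, dap and thr, which are transcripts added before labelling, the median of all genes moved to -0.86. It gave 57 mitoribosomal genes lower and 0 higher, against 77.1% and 11.3% of all genes. All 4 poly-A controls gave 53 lower, against 42.7%. Scaling on controls shifts all genes alike, so that the mitoribosomal median relative to that of all genes was -0.96 as deposited and under each of these scalings. That value rests on a set with many genes at the lower limit. Relative to the brighter genes, those above the median signal, it was -0.70 as deposited. A variance model with trend and robust options, array weights, and 32 added to the linear values each gave 48 lower and 3 higher, against 36.6%, 37.1% and 36.6% of all genes lower and 23.8%, 23.9% and 23.8% higher. A threshold of 0.01 left 1 gene higher, against 19.7% of all genes, and the replicate number as a block left 43 lower, against 34.1%. Differences of single genes are those of the deposited values unless another scaling is named. They are not corrected for this dependence on the scale. In bulk RNA, fewer cells of a type and less RNA per cell cannot be told apart.

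**Figure D2:**
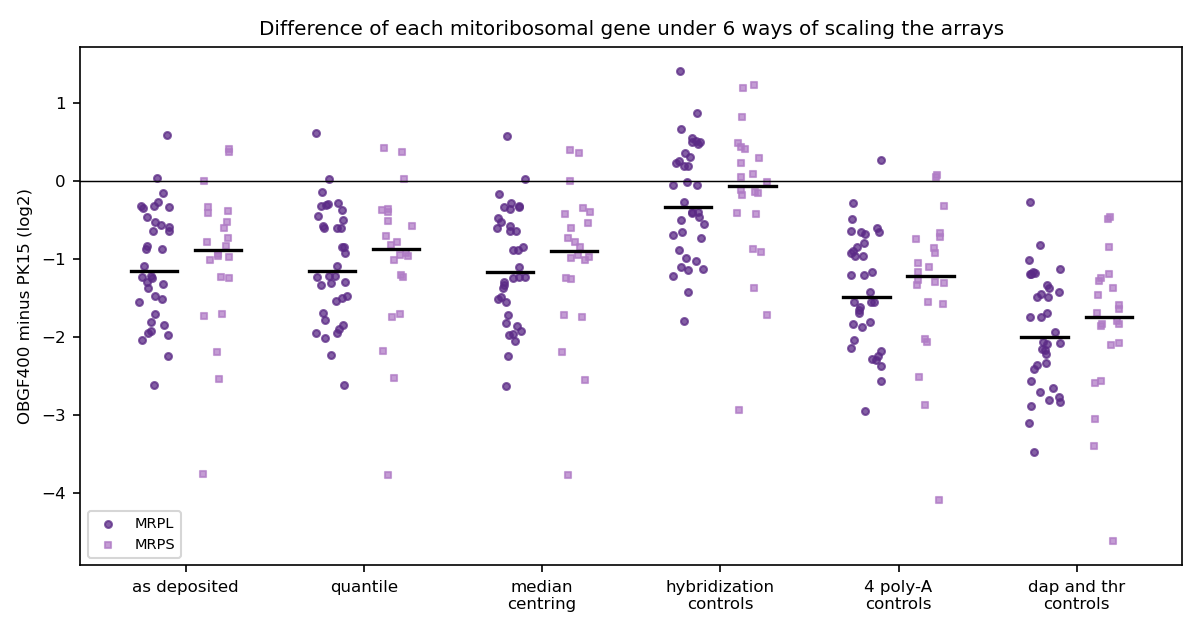
Difference OBGF400 minus PK15 (y axis, log2) of each MRPL gene (circles) and MRPS gene (squares) under 6 ways of scaling the arrays (x axis); black bars are medians and the sideways spread of points carries no value. The medians of both subunits lie below 0 in each, near -1 as deposited and closest to 0 after hybridization control scaling (-0.33 for MRPL and -0.07 for MRPS), where single genes change sign.

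Of the 36 large subunit genes, 31 were lower in OBGF400, 1 was higher and 4 had no call. Their median difference was -1.15, with quartiles of -1.60 and -0.51 and a range from -2.62 to 0.58. Among the 22 small subunit genes there were 17 falls, 2 rises and 3 without a call; the median was -0.89, with quartiles of -1.25 and -0.45 and a range from -3.76 to 0.40. The quartile ranges of the subunits overlapped widely, and no test of one subunit against the other was made. Called falls of at least 2-fold were found for 19 large and 8 small subunit genes.

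The per-array medians of the large subunit genes were 9.56, 9.40 and 9.50 in OBGF400 and 10.63, 10.73 and 10.56 in PK15. Those of the small subunit genes were 8.84, 8.87 and 8.72 against 9.72, 9.91 and 9.65. The large subunit median was thus the higher on each of the 6 arrays. Signals of different probe sets also depend on the probes and are not given per length, so this order says nothing of the amounts of the subunits. Mean signals over the 6 arrays ran from 4.30 to 12.17 among large and from 6.65 to 12.17 among small subunit genes. None of the 58 was at the lower limit of the table, 2.13, which 25.8% to 27.3% of probe sets shared on each array.

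**Figure D3:**
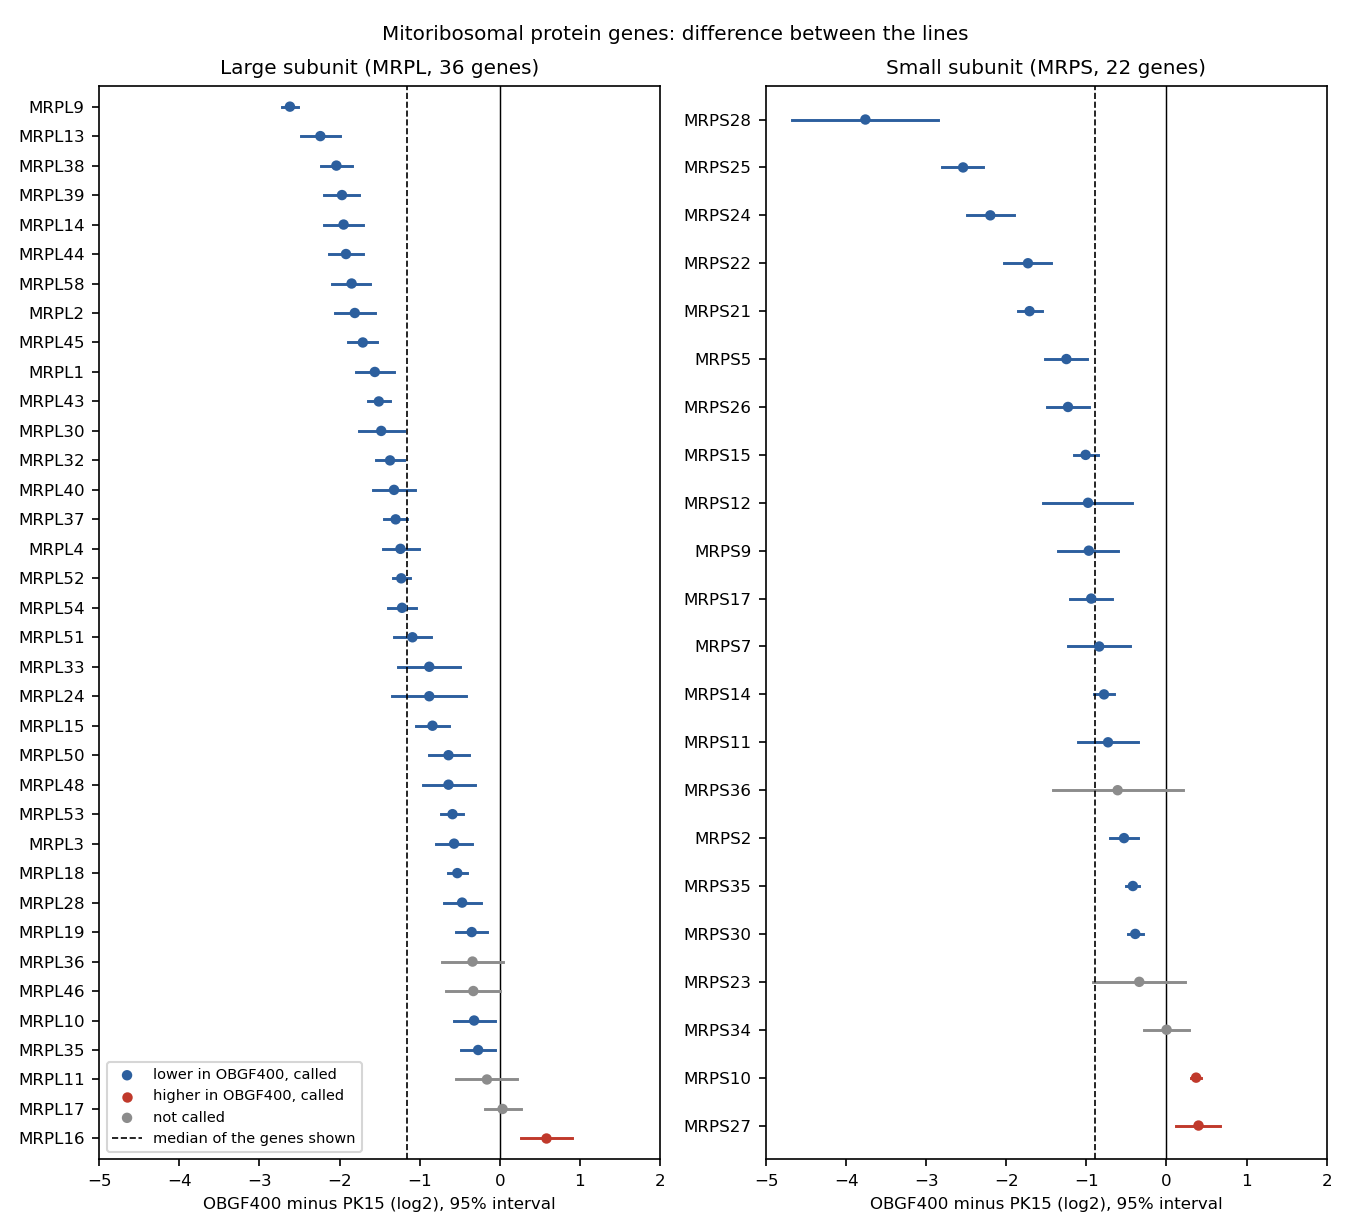
Difference OBGF400 minus PK15 (x axis, log2) of each mitoribosomal gene with its 95% interval from limma, coloured by call; the dashed line is the median of the genes shown, -1.15 for MRPL and -0.89 for MRPS. MRPS28 lies farthest to the left at -3.76 with the widest interval, and MRPL16, MRPS10 and MRPS27 are the genes called higher as deposited.

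Among large subunit genes with a bacterial counterpart, MRPL9 had the largest fall. Its signal was 8.96, 8.98 and 8.90 on the OBGF400 arrays and 11.54, 11.64 and 11.54 on the PK15 arrays, a difference of -2.62 ± 0.038 (SE, 3 arrays per line, adjusted p = 2.72e-06, limma). The lines were far apart beside SDs of 0.039 and 0.057 within them. MRPL13 was at 10.06, 10.05 and 9.91 against 12.27, 12.38 and 12.10, a difference of -2.24 ± 0.09 (adjusted p = 5.25e-05). MRPL14, the protein to which the assembly factor MALSU1 binds, was at 9.40, 9.33 and 9.43 against 11.29, 11.52 and 11.21, a difference of -1.95 ± 0.091 (adjusted p = 7.91e-05). These 3 genes were 6.16-fold, 4.74-fold and 3.88-fold lower in OBGF400, and their arrays did not overlap. MRPL2, whose bacterial counterpart lies beside the catalytic centre, differed by -1.81 ± 0.10, and its other probe set gave -1.96 ± 0.11. MRPL1, a protein of the stalk on the side where spent tRNA leaves, differed by -1.56 ± 0.088. MRPL30 (-1.48 ± 0.10), MRPL32 (-1.37 ± 0.064) and MRPL4 (-1.24 ± 0.084) completed the genes of this kind with a fall of at least 2-fold.

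Proteins found only in mitochondria, which form much of the outer shell, followed the same direction. MRPL38, MRPL40, MRPL46 and MRPL48 belong to the central protuberance, a crown of the large subunit that faces the small one. MRPL38 was at 8.58, 8.52 and 8.50 in OBGF400 and at 10.48, 10.71 and 10.52 in PK15, a difference of -2.04 ± 0.07 (SE, adjusted p = 3.31e-05, limma). MRPL40 differed by -1.32 ± 0.10, MRPL48 by -0.64 ± 0.12, and MRPL46 by -0.33 ± 0.13 without a call (adjusted p = 0.085). Genes for parts of 1 structure thus differed by amounts from 1.26-fold to 4.11-fold.

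MRPL39, MRPL44 and MRPL45 sit around the exit of the tunnel through which the new chain leaves, and MRPL45 faces the inner membrane. MRPL39 was at 8.94, 8.67 and 8.75 against 10.79, 10.80 and 10.70 in PK15, a difference of -1.97 ± 0.081 (SE, adjusted p = 5.41e-05, limma). MRPL44, which has the fold of an RNase III enzyme, was at 8.11, 8.02 and 7.91 against 9.99, 9.99 and 9.82, a difference of -1.92 ± 0.078 (adjusted p = 5.29e-05). MRPL45 differed by -1.71 ± 0.07 (adjusted p = 5.44e-05). The 3 genes were between 3.28-fold and 3.92-fold lower and none of their arrays overlapped. MRPL24 and MRPL17, counterparts of bacterial proteins at the same exit, differed less. MRPL24 had the lowest signal of the large subunit genes, 4.02, 3.88 and 3.66 against 4.48, 4.72 and 5.00, a difference of -0.88 ± 0.17 (adjusted p = 0.01). MRPL17, among the 2 highest, was at 11.75, 11.80 and 11.83 against 11.68, 11.93 and 11.67, a difference of 0.035 with a 95% interval from -0.19 to 0.26.

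MRPL58, a peptidyl-tRNA hydrolase that became a ribosomal protein, differed by -1.85 ± 0.089 (SE). MRPL43 (-1.51 ± 0.054), MRPL37 (-1.30 ± 0.053), MRPL52 (-1.23 ± 0.041) and MRPL51 (-1.09 ± 0.085) were also called at least 2-fold lower. MRPL54, 1 of the 2 large subunit genes with the lowest signal, was at 6.95, 6.84 and 6.92 against 8.15, 8.22 and 8.00, a difference of -1.22 ± 0.069. MRPL53, which with MRPL54 lies near the stalk that recruits translation factors, differed by -0.59 ± 0.05, and MRPL50 by -0.64 ± 0.092. Of the stalk proteins with bacterial counterparts, MRPL10 differed by -0.32 ± 0.095 (adjusted p = 0.0404), a call lost without any 1 of the OBGF400 arrays or PK15 replicate 3, and MRPL11 by -0.16 ± 0.14 without a call (95% interval -0.54 to 0.22). Of MRPL53, MRPL54, MRPL10 and MRPL11, MRPL54 was 2.33-fold lower and the others were estimated at less than 2-fold.

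The remaining large subunit genes have bacterial counterparts and differed by less than 2-fold. MRPL3, with the highest mean signal of the large subunit genes, was at 11.90, 11.88 and 11.87 in OBGF400 and 12.57, 12.50 and 12.29 in PK15, a difference of -0.57 ± 0.082 (SE). MRPL33 (-0.88 ± 0.14), MRPL15 (-0.84 ± 0.078), MRPL18 (-0.53 ± 0.045), MRPL28 (-0.47 ± 0.086) and MRPL19 (-0.35 ± 0.072) were called lower, with adjusted p-values from 5.26e-04 for MRPL18 to 0.0119 for MRPL19. MRPL36 was not called (-0.34 ± 0.14, adjusted p = 0.11), although its arrays did not overlap. MRPL35 was called at -0.27 ± 0.082 (adjusted p = 0.0419), but not without any 1 of the OBGF400 arrays or PK15 replicate 1. A second MRPL35 probe set read 0.27 ± 0.10, and none of its 3 probe sets was called when all probe sets were tested.

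MRPL16 was the 1 large subunit gene higher in OBGF400. Its protein corresponds to a bacterial one that contacts tRNA on the large subunit. The signal was 9.75, 9.68 and 9.69 in OBGF400 and 9.19, 9.30 and 8.88 in PK15, with no overlap, a difference of 0.58 ± 0.12 (SE, 1.5-fold higher, adjusted p = 0.0121, limma). Under dap and thr scaling it was -0.27.

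The largest fall of all 58 genes was that of the small subunit gene MRPS28, which the unified nomenclature sets beside the bacterial S1 protein. Its signal was 6.41, 6.38 and 5.33 on the OBGF400 arrays and 9.78, 9.95 and 9.68 on the PK15 arrays. OBGF400 replicate 3 read about 1 below the other arrays of its line, and all of them lay more than 3 below PK15. The difference was -3.76 ± 0.34 (SE, 13.6-fold lower, adjusted p = 6.78e-04, limma), and it ranged from -3.95 to -3.41 when each array was left out in turn.

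MRPS25, found only in mitochondria, was at 7.25, 7.48 and 7.34 in OBGF400 and 9.85, 10.05 and 9.80 in PK15, a difference of -2.54 ± 0.10 (SE, 5.84-fold lower, adjusted p = 4.39e-05). MRPS24, counterpart of the bacterial S3 protein at the entry of the mRNA, was at 8.50, 8.27 and 8.22 against 10.50, 10.68 and 10.40, a difference of -2.20 ± 0.11 (adjusted p = 1.05e-04). MRPS22, specific to mitochondria and mutated in inherited respiratory chain deficiency, was at 7.90, 7.78 and 7.76 against 9.58, 9.71 and 9.34, a difference of -1.73 ± 0.11 (adjusted p = 2.04e-04). In each of these genes the lines were separated by several times the spread within a line. MRPS21, with the highest signal of the small subunit genes, was at 11.38, 11.27 and 11.30 against 13.02, 13.11 and 12.94, a difference of -1.71 ± 0.055 (adjusted p = 2.77e-05). MRPS5 was at 7.86, 7.83 and 7.95 against 8.94, 9.25 and 9.22, a difference of -1.25 ± 0.10 (adjusted p = 4.34e-04). These largest falls were thus found at low and at high signal. Not all such genes fell: MRPS10, at a mean signal of 10.95, was higher, and MRPS23, at 6.65, was not called.

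The other called falls in the small subunit ranged from -1.23 to -0.39. MRPS26, specific to mitochondria (-1.23 ± 0.10, SE), and MRPS15, a counterpart of bacterial S15 (-1.01 ± 0.054), were just over 2-fold lower. MRPS12 corresponds to the bacterial S12 protein, which lies at the decoding site. It was at 8.81, 8.82 and 8.61 against 9.51, 10.15 and 9.52, with PK15 replicate 2 above the others, and differed by -0.98 ± 0.21 (adjusted p = 0.0132). Without OBGF400 replicate 3 it was -0.92 and not called. Its 2 other probe sets gave -0.77 ± 0.059 and -2.27 ± 0.16, so that its direction was shared by all 3. MRPS9 (-0.97 ± 0.14), MRPS17 (-0.94 ± 0.10), MRPS7 (-0.84 ± 0.15), MRPS14 (-0.78 ± 0.044), MRPS11 (-0.73 ± 0.14) and MRPS2 (-0.53 ± 0.065), all with bacterial counterparts, followed. The smallest called falls were those of MRPS35 (-0.42 ± 0.032) and MRPS30 (-0.39 ± 0.036), both specific to mitochondria. Despite its symbol, MRPS30 sits in the large subunit of the mammalian ribosome, and counting it there gave 32 large and 16 small subunit genes lower.

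Against this direction, 2 small subunit genes were higher in OBGF400. MRPS10, a protein of the head of the subunit, was at 11.15, 11.12 and 11.13 in OBGF400 and 10.78, 10.79 and 10.72 in PK15, a difference of 0.37 ± 0.022 (SE, 1.29-fold higher, adjusted p = 1.67e-04, limma). The difference was small, but the spread within each line was smaller still. MRPS27, an RNA-binding protein of the pentatricopeptide repeat family, was at 9.02, 8.93 and 8.86 against 8.34, 8.66 and 8.62, a difference of 0.40 ± 0.10 (adjusted p = 0.0275). The call of MRPS27 was lost without any 1 of the OBGF400 arrays or without PK15 replicate 3, with differences of 0.35, 0.40, 0.43 and 0.43. Under dap and thr scaling MRPS10 was at -0.49 and MRPS27 at -0.46.

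For 3 small subunit genes the lines were not called apart. MRPS34, specific to mitochondria, was at 10.11, 10.20 and 10.05 against 9.97, 10.31 and 10.07, a difference of 0.0011 with a 95% interval from -0.28 to 0.28. That interval leaves out a change as large as the median fall of the subunit. MRPS36, also known as a component of the oxoglutarate dehydrogenase complex, was at 8.47, 8.30 and 8.46 against 9.65, 8.67 and 8.72, and PK15 replicate 1 stood apart. Its difference of -0.61 ± 0.30 was not called (adjusted p = 0.162), and without that array it was -0.29 and called. MRPS23, with the lowest signal of the small subunit genes, was at 6.54, 6.35 and 6.54 against 7.26, 6.67 and 6.54, a difference of -0.34 ± 0.22 (adjusted p = 0.251), and 3 of its 6 values were identical.

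By size, 6 called genes fell by 2 or more on the log2 scale, 21 by 1 to 2, 15 by 0.5 to 1 and 6 by less than 0.5. Splitting the genes by origin gave no single picture. In the large subunit the 15 genes without a bacterial counterpart had a median difference of -1.30 (14 lower, 0 higher) and the 21 with one -0.84 (17 lower, 1 higher). In the small subunit the order was the other way, with -0.42 for 9 genes without a counterpart (5 lower, 1 higher) and -0.97 for 13 with one (12 lower, 1 higher). These medians are descriptions and were not tested against each other.

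Of the 14 genes with several probe sets, 7 had all of them called lower, 5 had some called lower and the others not called, and 2, MRPL35 and MRPL46, had none called. In no gene were probe sets called in opposite directions. Over the 77 probe sets, 55 were called lower and 3 higher. These calls come from a separate fit over all probe sets but the controls. The shares of all genes given above therefore do not apply to them. Probe sets of 1 gene could differ in size: those of MRPL18 gave -0.53 ± 0.045 and -1.46 ± 0.14 (SE), and those of MRPL3 -0.57 ± 0.083, -1.05 ± 0.11 and, at a dim signal, -0.73 ± 0.32 without a call. Size of change therefore carries an uncertainty between probe sets that the standard errors do not hold.

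Mitoribosomal proteins that carry other symbols were lower as well, with 4 of 4 measured genes called, beside 36.8% of all genes, and a median of -0.69. All 4 were also called lower among the brighter genes, against 51.6%. GADD45GIP1 (CRIF1), a large subunit protein, was at 7.19, 7.11 and 7.15 against 8.83, 9.30 and 8.74, a difference of -1.81 ± 0.17 (SE). CHCHD1 (-0.76 ± 0.042) and the pentatricopeptide repeat protein PTCD3 (-0.61 ± 0.07) belong to the small subunit. DAP3, the GTP-binding protein of the small subunit, differed by -0.46 ± 0.15 (adjusted p = 0.0487). Hybridization control scaling left 1 of these 4 lower and turned 1 higher, where 18.6% of all genes were lower and 66.3% higher. The genes MRPL12, MRPL20, MRPL41, MRPS6, MRPS16 and MRPS31 are among those not analysed here.

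Factors that work with the mitochondrial ribosome were mostly lower. Of 9 translation factors, 8 fell and 1 rose (median -1.08), beside 36.8% and 23.9% of all genes. TACO1, an activator of cytochrome oxidase translation (-2.54 ± 0.25, SE), the release factor MTRF1 (-1.93 ± 0.16) and the recycling factor MRRF (-1.64 ± 0.12) had the largest falls, and the elongation factor TUFM was at 10.30, 10.21 and 10.29 against 11.34, 11.68 and 11.56. MTRF1L, a second release factor, was higher, by 0.90 ± 0.14. The release factors thus differed in opposite directions. Under dap and thr scaling 8 fell and 0 rose, beside 77.1% and 11.3% of all genes. With hybridization control scaling 4 fell and 2 rose, beside 18.6% and 66.3%. Of the 7 brighter factors, 6 fell and 1 rose as deposited, against 51.6% and 32.4% of brighter genes.

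Of 22 genes for assembly of the mitochondrial ribosome and for mitochondrial RNA, 15 fell and 2 rose, beside 36.8% and 23.9% of all genes. The other 5 had no call, and the median was -0.79. Among the 5, SUPV3L1 read 6.15 on all 6 arrays, and such a constant value says nothing of a difference. HSD17B10, a subunit of mitochondrial RNase P (-2.50 ± 0.13, SE), RBFA, an assembly factor of the small subunit (-2.18 ± 0.063), and ERAL1, a chaperone of its RNA (-2.02 ± 0.43), had the largest falls. The poly(A) polymerase MTPAP, at 8.72, 8.70 and 8.69 against 7.68, 8.01 and 7.49, and the RNA-binding SLIRP, at 10.55, 10.49 and 10.58 against 10.02, 10.30 and 10.26, were higher. TFAM, the packaging factor of mitochondrial DNA, was 1.74-fold lower, and MALSU1 was not called (adjusted p = 0.0776). Hybridization control scaling gave 7 lower and 7 higher, where 18.6% of all genes were lower and 66.3% higher. Of the 16 brighter genes of this group, 13 fell and 3 rose as deposited, against 51.6% and 32.4%. Of 11 genes for charging mitochondrial tRNA, 5 fell and 0 rose (median -0.33), where 36.8% of all genes fell and 23.9% rose. The share of falls among the 11 was near that of all genes, but VARS2 and NARS2 were at the lower limit in both lines. Above the median signal of all genes, 4 of 6 fell, against 51.6%. KARS and GARS, the brightest of the 11 at mean signals of 13.05 and 12.30, were not called (-0.075 and 0.10). Hybridization control scaling gave 3 falls and 6 rises among the 11 (median 0.49), where 18.6% of all genes fell and 66.3% rose. GATB and GATC, subunits of the amidotransferase that makes glutaminyl-tRNA, and the synthetase IARS2 fell most. GATC was 3.47-fold and IARS2 3.34-fold lower. GATB was at 3.83, 3.38 and 3.16 in OBGF400, toward the lower limit of 2.13, and at 5.89, 5.77 and 6.39 in PK15.

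**Figure D4:**
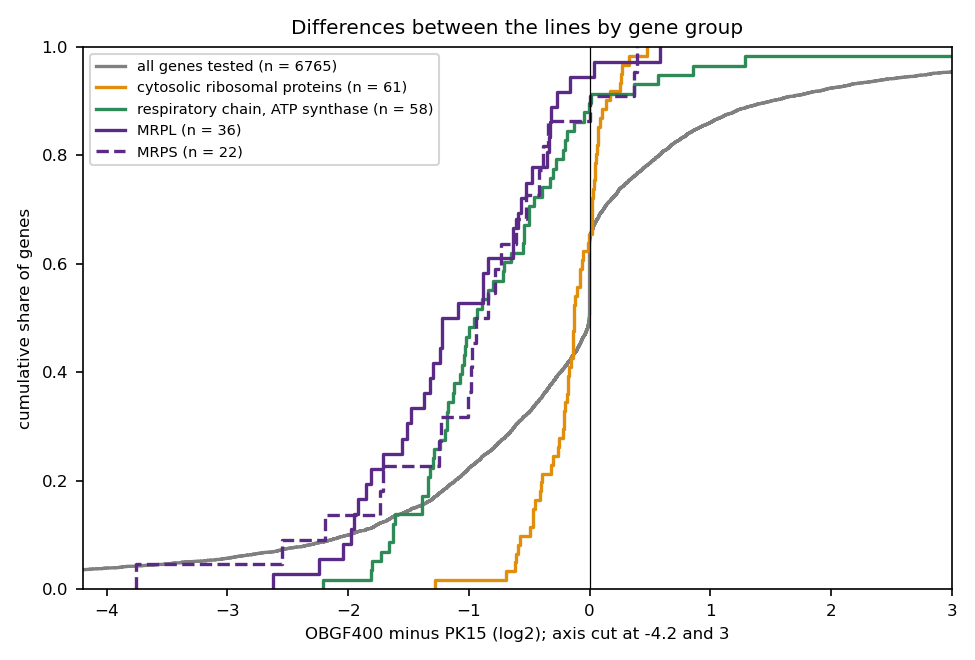
Cumulative share of genes (y axis) with a difference OBGF400 minus PK15 at or below the value on the x axis (log2), for MRPL and MRPS genes, respiratory chain and ATP synthase genes, cytosolic ribosomal protein genes and all genes tested. The mitoribosomal and respiratory chain curves cross the middle near -1 and the cytosolic ribosomal curve near 0 (median -0.13); hybridization control scaling shifts every curve by 0.82 to the right.

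Respiratory chain and ATP synthase genes, which include the partners of the proteins this ribosome makes, differed to a like extent as deposited. Of 58 such genes, 46 fell and 5 rose (median -0.94, quartiles -1.28 and -0.35), beside 36.8% and 23.9% of all genes. Of the 55 brighter ones, 44 fell and 4 rose, against 51.6% and 32.4% of brighter genes. NDUFA1, NDUFC1 and NDUFB8, subunits of complex I, fell by 4.62-fold, 3.5-fold and 3.49-fold. COX7A1, ATP5E (2.45-fold) and NDUFS3 (1.82-fold) had the largest rises. COX7A1 was at 7.69, 7.76 and 7.66 in OBGF400 and at 2.31, 2.25 and 3.97 in PK15, where 2 arrays lay close to the lower limit of 2.13, and no fold is given for it. Cytosolic ribosomal proteins differed less: of 61 genes, 30 fell, 8 rose and 23 had no call (median -0.13, quartiles -0.26 and 0.036). Above the median signal of all genes, 21 of 58 fell and 5 rose, against 51.6% and 32.4%. Their median signals were 14.61 in OBGF400 and 14.87 in PK15, far above the 9.28 and 10.29 of the mitoribosomal genes. The groups were thus compared at unlike signal levels. Under hybridization control scaling the median differences of respiratory chain and cytosolic ribosomal genes became -0.12 and 0.70. Of 18 genes of other mitochondrial parts and their regulators, 12 fell and 0 rose, beside 36.8% and 23.9% of all genes. Their median was -0.46, or 0.37 after hybridization control scaling. They held the import receptor TOMM20 (2.3-fold lower), PHB2 (2.14-fold lower) and the transcription factor MYC (3.21-fold lower), while the matrix enzyme citrate synthase, CS, was not called (1.15-fold lower, adjusted p = 0.085). PPARGC1A, a coactivator of mitochondrial biogenesis, was at the lower limit in both lines. Of the 17 brighter genes of this group, 14 fell and 0 rose, with a median of -0.54 beside -0.27 for all brighter genes.

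Other properties moved with the lines. Of 15 proliferation genes 13 fell in OBGF400 and 0 rose (median -3.83), beside 36.8% and 23.9% of all genes. Some lay toward the lower limit of 2.13 in OBGF400, such as AURKB (2.60, 3.49 and 2.80) and CCNA2 (2.84, 2.41 and 2.84). Of the 9 brighter ones, 8 fell and 1 rose (median -1.16), against 51.6% and 32.4% of brighter genes. The per-array medians of the 15 genes in OBGF400 were 6.05, 7.71 and 7.02. Those of the mitoribosomal genes on the same arrays were 9.26, 9.31 and 9.28. All 6 epithelial markers were lower in OBGF400 (median 2.45 against 13.63), 5 of 6 mesenchymal markers were higher (13.19 against 2.74), and of 5 measured neuronal markers UCHL1, NCAM1 and MAP2 were higher while STMN2 and SNAP25 were at the lower limit in both lines. Of 3 kidney markers HNF4A and DPP4 were higher in PK15. Of 5 leukocyte markers LAPTM5, AIF1 and SPI1 were higher in PK15 and CD14 in OBGF400, with PTPRC at the lower limit in both, and of 4 endothelial markers CDH5 was higher in PK15 and ERG in OBGF400. The 28S rRNA controls were higher in OBGF400 by 1.07, and the 18S rRNA controls differed by -0.12. The actin controls differed by 0.62 at the 5′ end and 0.047 at the 3′ end, and the gapdh controls by -0.29 and -0.41. The part of cell type, growth and RNA quality in the mitoribosomal differences was not tested.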

How the data were processed

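RNA of 2 pig cell lines was measured on Affymetrix porcine expression arrays, 3 arrays per line. Per the labels, 8 µg of pooled total RNA was labelled for each array. The authors deposited log2 values, with 1 signal for each probe set on each array. Per the submitters' processing notes they used affy; its settings are not given here. Of 24123 probe sets, 124 controls were left out, and 10069 had exactly 1 symbol in the platform annotation, 198 had several and 13732 had none. They stood for 6765 genes, each represented by its brightest probe set, judged by the mean of the 6 arrays. The 6 probe sets that name a mitoribosomal gene among several symbols were not used.

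The lines were compared over all 6765 genes with limma 3.58.1 (lmFit and eBayes, two-sided, R 4.3.3), with Benjamini-Hochberg adjustment, and a gene with an adjusted p under 0.05 is described as called. Tables were prepared in Python 3.11.15. On simulated data with 6765 genes, of which 200 were changed, the fit recovered 84.0% of genes changed by 1 on the log2 scale and 97.0% of those changed by 2. Of the calls, 5.2% were false. In the data 60.8% of genes were called, so the simulation had far fewer changed genes. The number of arrays limits the precision. An exact permutation test of 3 against 3 arrays cannot go below 0.1, and limma gave the p-values.

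The alternatives were other scalings of the arrays, 2 filters on dim genes, other variance models, array weights, 32 added to the linear values, averaging all probe sets per gene, the replicate number as a block, a stricter threshold (0.01), another assignment of subunits and leaving out each array. The replicate numbers did not pair the arrays: deviations from the line means of same-numbered arrays correlated by -0.01 to 0.03 across genes. Members and lists were chosen with earlier results of these data known. Every gene that matched the symbol rule is a member. Values on every array are given in each subunit for up to 6 called falls and 6 called rises, taken by size, for the 2 highest and 2 lowest mean signals, and for called members that went against the others. Of each other list, at most 3 called rises and 3 called falls are named, also by size, and other genes of these lists were named after their values were seen. No sequences or genome positions are given, since no table of them for these genes and no build for the probes was used here.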

Additional observations from a re-analysis of the deposited data

How the results depend on the processing

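Scaling on controls moved the results most. With hybridization control scaling, 25 mitoribosomal genes were lower and 14 higher (18 and 8 of the large, 7 and 6 of the small subunit), beside 18.6% and 66.3% of all genes. This scaling gave medians of -0.13, -0.33 and -0.07 for all mitoribosomal, large and small subunit genes. It turned MRPS14 to 0.042, MRPS11 to 0.091, MRPL48 to 0.19, MRPL50 to 0.19, MRPS36 to 0.22, MRPL53 to 0.23, MRPL3 to 0.25, MRPS2 to 0.29, MRPL18 to 0.30, MRPL28 to 0.35, MRPS35 to 0.40, MRPS30 to 0.43, MRPL19 to 0.47, MRPS23 to 0.48, MRPL36 to 0.49, MRPL46 to 0.49, MRPL10 to 0.51, MRPL35 to 0.55 and MRPL11 to 0.66. Scaling on all 4 poly-A controls gave medians of -1.28, -1.48 and -1.22, with 0 genes called higher by limma in either subunit, beside 16.2% of all genes. It turned MRPS34 to -0.33 and MRPL17 to -0.29. Scaling on dap and thr alone gave -1.81, -2.01 and -1.75, again with 0 higher, beside 11.3% of all genes. It turned MRPS34 to -0.85, MRPL17 to -0.82, MRPS10 to -0.49, MRPS27 to -0.46 and MRPL16 to -0.27. The controls themselves differed between the lines, OBGF400 minus PK15, by -0.82 for hybridization, 0.33 for 4 poly-A and 0.85 for dap and thr controls. At a threshold of 0.01, 1 gene was higher (0 large, 1 small). The large subunit median was -1.06 with 32 added to the linear values and -1.02 with all probe sets averaged per gene, and MRPS34 became -0.0064 with median centring. The cause of these changes was not tested.

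Under the other alternatives 43 to 49 mitoribosomal genes were called lower, beside 31.3% to 51.6% of the genes tested. The fit with the replicate number as a block gave 43 lower and 2 higher (1 of them in the small subunit), beside 34.1% and 21.8% of all genes. The numbers did not pair the arrays. Leaving out each array in turn gave 45 to 48 lower and 2 to 4 higher over all members, 29 to 31 and 1 to 2 in the large subunit, and 16 to 18 and 1 to 2 in the small one. In these fits 33.5% to 36.1% of all genes were lower and 21.7% to 23.3% higher. The mitoribosomal medians then ran from -1.03 to -0.86 over all members, from -1.18 to -1.10 in the large and from -0.98 to -0.77 in the small subunit, the last without PK15 replicate 2. Of 51 called genes, 47 kept their call in all 6 of these fits. MRPL10 lost it without any 1 of the OBGF400 arrays or PK15 replicate 3, MRPL35 without any 1 of the OBGF400 arrays or PK15 replicate 1, and MRPS12 without OBGF400 replicate 3, beside MRPS27. Without PK15 replicate 2, MRPL17 was called at 0.12 and MRPS34 stood at 0.10. MRPL17 turned to -0.0055 and -0.011 without PK15 replicates 1 and 3, and MRPS34 to -0.038, -0.072 and -0.024 without OBGF400 replicate 2 and PK15 replicates 1 and 3.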
